A study of Arabidopsis thaliana with 2 samples.

Results

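The transcripts described here are those that gave the brightest signals in the sap of leaf pavement cells of Arabidopsis thaliana. Pavement cells are the ordinary ground cells of the leaf epidermis, which interlock like puzzle pieces and make the outer wall and cuticle of the leaf. The members were selected on the measured pavement signal itself: genes whose log2 signal on the pavement array was above 6. They number 193 of the 13356 genes with a probe set that names exactly 1 gene, or 1.45% of them. Because this signal chose the members, their pavement levels and ranks are given as a description and carry no test.

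The series holds 1 array of pavement cell sap and 1 array of trichome sap (trichomes are the hairs of the leaf epidermis), both from plants of genotype Columbia-0 at 5 weeks of age, grown at 20/18 °C with 16 h of light and 8 h of dark, with no treatment in either group. Sap was taken from the cells through fine glass capillaries, and its RNA was amplified in 1 round before labelling. Both samples carry replicate number 1, so that no value has a replicate error and no difference between the arrays can be tested. The labels do not say how many cells or plants a sample holds. With 2 arrays in all, precision is limited by their number.

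A signal on this kind of array is the brightness of the probes of 1 gene. It depends on how well those probes bind as well as on the amount of RNA, so a rank gives the order of brightness and not of molar amount, and it is not corrected for transcript length. All 193 members were measured by a single probe set. Among genes with several probe sets, the probe sets of the same gene differed with a pooled SD of 0.63 on the log2 scale (146 genes), and of 1.47 over the 25 genes with at least 1 probe set above background. The gap between the first and the second rank, 0.12, lay well within this spread, whereas the gap between the second and the third, 0.97, exceeded the first of these SDs but not the second. Background was taken as 2.58, the highest reading of the 27 probe sets for Bacillus transcripts. On the pavement array 2129 genes (15.9%) read above background there. The 18 hybridisation controls, bacterial and phage transcripts that the usual procedure adds before hybridisation, read from 10.06 to 14.20 on the pavement array with a median of 11.65, and 6 members were brighter than this median. On the trichome array their median was 8.50, and the median of the differences, trichome minus pavement, was -3.15. Among the array's plant control probe sets, the 3' end read brighter than the 5' end in pavement in both ubiquitin pairs (11.19 and 4.07, 11.89 and 6.68), both actin pairs (5.09 and 2.25, 4.07 and 2.50) and the first GAPDH pair (7.01 and 2.03). In the second GAPDH pair both ends were at background (2.16 and 2.05). The part of this end difference in the readings of single genes was not tested. In sap, fewer cells of a type and less RNA per cell cannot be told apart.

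Leaf epidermal cells combine a nuclear genome with those of the plastids and mitochondria. Plastid genes encode core subunits of the photosystems, the cytochrome b6f complex, ATP synthase and the NDH complex, which together carry electrons and protons across the thylakoid membrane, besides part of the plastid's own RNA polymerase and ribosomes. Nuclear genes supply the antenna proteins, the remaining subunits and the enzymes of carbon fixation. The expansion and shape of an epidermal cell depend on its wall, where expansins loosen the cellulose network and xyloglucan endotransglucosylases cut and rejoin the xyloglucan that links it.

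Pavement signals of the members ran from 6.01 to 13.24, and their quartiles were 6.73, 7.48 and 9.19. Of the 193 members, 27 read above 10, 52 between 8 and 10, 50 between 7 and 8 and 64 between 6 and 7. On the linear scale the 10 brightest members made up 39.9% of the summed signal of all members, and the 30 brightest 64.4%. By genome, 26 members were plastid-encoded, 1 was mitochondrion-encoded and 166 were nuclear. Of the nuclear members, 45 were taken as named, by a symbol or synonym. Among these, AT1G54410, AT1G53210, AT4G01150, AT1G74470 and AT5G06700 have their locus as symbol. The other 121 also have their locus as symbol, are called listed by locus alone, and are given no function here. They include any ribosomal protein genes, which could not be counted.

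Among genes with a probe set that names exactly 1 gene, the 10 brightest included 5 plastid genes. Of the probe sets left out of this ranking, 228 with no gene listed and 24 paired with several genes also read above 6. The brightest of those with no gene listed, at 13.34, exceeded the gene at rank 1. The gene at rank 1 was atpE, which encodes the epsilon subunit of the plastid ATP synthase, at 13.24 in pavement and 9.07 in trichome. AT2G25510, a locus without a name, followed at 13.13 in pavement and 4.80 in trichome. The plastid gene psaB, for a core protein of photosystem I, read 12.15 in pavement and 6.14 in trichome. These members were clear of background on both arrays.

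PSBW, a nuclear gene for a small subunit of photosystem II, was at rank 4 with 12.14 in pavement and 6.88 in trichome. The plastid gene ndhC, for a subunit of the NDH complex, read 11.92 and 7.12. AT1G54410 (HIRD11), a small dehydrin, one of the hydrophilic proteins that accumulate under cold and drought, read 11.77 in pavement and 8.77 in trichome. UBC28, a ubiquitin-conjugating enzyme, read 11.62 and 7.17. All 4 of these genes also ranked high on the trichome array, where each read above 6.

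The last of the 10 were psbA, rpoA and AT1G52300. The gene psbA encodes the D1 protein of the photosystem II reaction centre and read 11.42 in pavement and 6.81 in trichome. For rpoA, the alpha subunit of the plastid RNA polymerase, the readings were 11.11 and 7.58. The unnamed locus AT1G52300 read 11.10 in pavement and 6.53 in trichome.

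**Figure D1:**
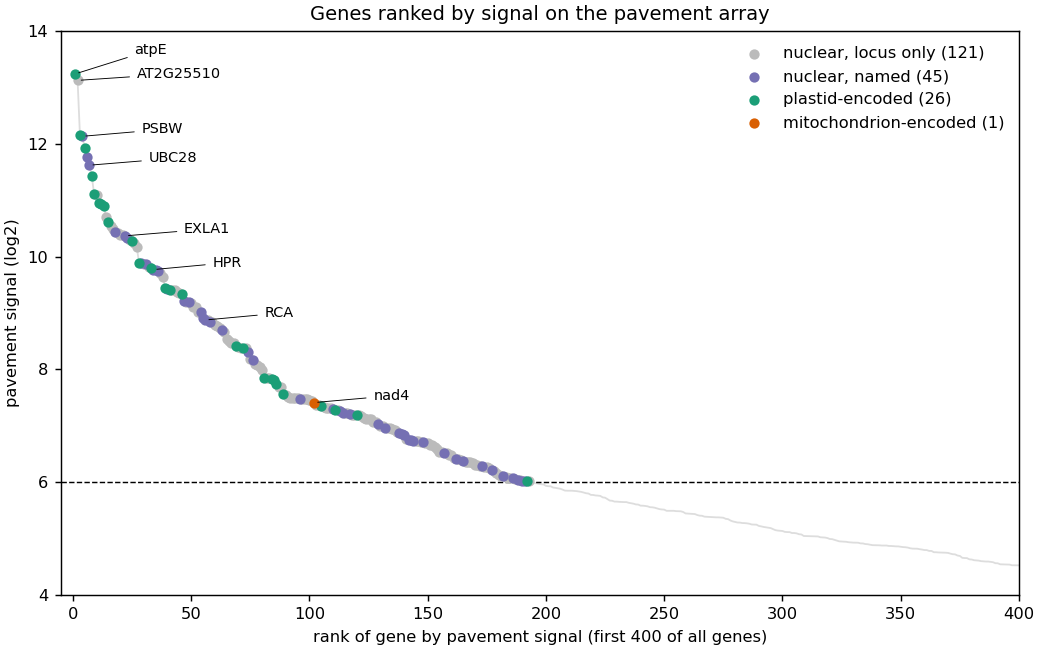
Pavement signal (log2) of genes against their rank on the pavement array. Points are the 193 members, coloured as plastid-encoded (26), mitochondrion-encoded (1), nuclear with a name (45) and nuclear listed by locus alone (121); the grey line continues through the genes under the dashed line at 6. The plastid-encoded genes are densest at the top ranks, where atpE reads 13.24.

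Probe sets left out of the ranking enter none of the shares given here. Plastid genes made up more of the brightest members than of the dimmer ones. Their share was 50% of the 10 brightest genes (5), 36.7% of the 30 brightest (11), 30% of the 50 brightest (15), 22% of the 100 brightest (22) and 13.5% of all 193 members (26). In summed linear signal the 26 plastid genes held 33.4% of the total of the members. Of the 69 plastid genes measured, 26 (37.7%) were members, against 166 of 13271 nuclear genes (1.25%) and 1 of 16 mitochondrial genes. The plastid members had a median of 9.43 in pavement, and the nuclear members one of 7.32.

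Subunits of each electron transport complex of the plastid were among the members, but in each complex some measured genes stayed at background. Of the 15 photosystem II genes measured, 4 were members: psbA, psbM (10.94), psbZ (10.90) and psbI (9.34). Their trichome readings were 6.47 for psbM, 4.37 for psbZ and 4.94 for psbI. The other 11 read from 1.84 for psbN to 5.43 for psbC, and 2 of them were at or under background. Apart from psbA, these members encode small subunits of the complex.

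Of the 5 photosystem I genes, 2 were members, psaB and psaJ (10.93 in pavement and 5.28 in trichome). The gene psaI read 5.92, just under the threshold. The gene psaA, whose protein pairs with that of psaB in the reaction centre, read 1.88 in pavement and 1.94 in trichome, at background on both arrays.

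Of the 6 cytochrome b6f genes, petA for cytochrome f read 9.80 in pavement and 4.27 in trichome. The gene petB, for cytochrome b6, read 9.41 and 3.19. The other 4 genes of the complex (petD, petG, petL and petN) were at or under background in pavement, with readings from 1.91 to 2.18. Readings within this complex thus fell at the extremes.

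Of the 6 ATP synthase genes, 4 were members. Besides atpE, these were atpH (7.85), atpF (7.81) and atpB (7.56), the genes for the ring subunit, a stalk subunit and the beta subunit. In trichome these 3 genes were at background, with 2.1 for atpH, 2.11 for atpF and 2.52 for atpB. The gene atpA for the alpha subunit read 3.63 in pavement, and atpI read 1.69.

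The NDH complex, which carries electrons around photosystem I, had 4 members among 10 genes measured: ndhC, ndhI (7.82), ndhD (7.74) and ndhJ (6.02). In trichome ndhI read 2.75, ndhD 3.67 and ndhJ, at background, 2.36. Of the other 6, ndhK read 5.98 and 5 were at or under background. Nuclear NdhS, a subunit of the same complex, was a member at 6.28 in pavement and 3.93 in trichome.

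Genes for the expression of the plastid genome were among the members too. Of the 15 plastid ribosomal protein genes measured, 6 were members: rps19 (10.29), rps4 (9.89), rpl32 (8.38), rps3 (7.35), rpl33 (7.28) and rpl20 (7.19). Of the 4 RNA polymerase genes, rpoA was a member, whereas rpoB, rpoC1 and rpoC2 read from 1.89 to 3.30. Further functions were represented by ccsA, for the attachment of haem to cytochromes (10.62 in pavement and 5.30 in trichome), clpP, a subunit of the plastid Clp protease (9.45 and 6.21), and matK, a maturase that takes part in intron splicing (8.42 and 3.09). The gene rbcL, for the large subunit of rubisco, read 4.07 in pavement and was no member.

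Neighbouring plastid genes gave unlike readings. Over the 68 pairs of measured genes that follow each other along the plastid genome, the median absolute difference in pavement signal was 3.38, and 33 pairs joined a member with a gene under the threshold. In 9 pairs both genes were members. The widest difference, 10.27, lay between psaB and psaA. The genes atpE and atpB, which follow each other, differed by 5.69, whereas atpF and atpH differed by 0.04. The trichome array showed a similar order over the 69 plastid genes, with Spearman's rho of 0.84 between the arrays. The points of this correlation share the probe sets, and genes are not independent replicates. Level was hardly related to gene length (rho of -0.09 over the same genes). Members had a median gene length of 563 bases, and the other plastid genes one of 555.

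**Figure D2:**
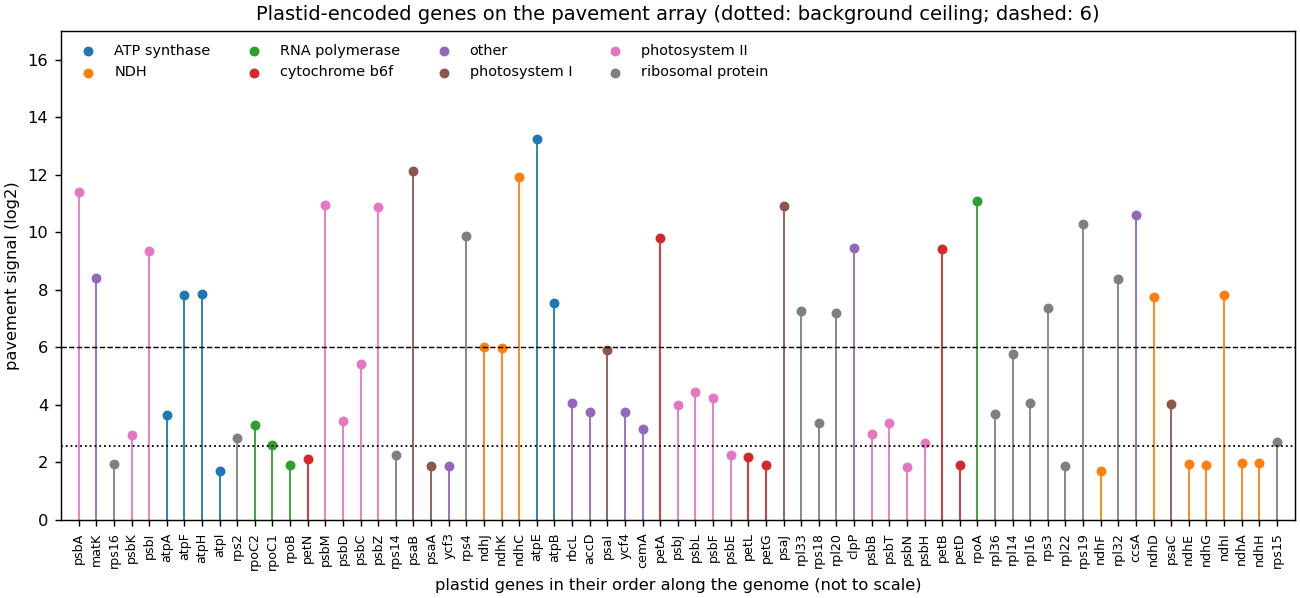
Pavement signal (log2) of the 69 measured plastid-encoded genes, placed in their order along the plastid genome (not to scale) and coloured by the complex or function they belong to. Bright genes stand beside genes at background, as psaB (12.15) beside psaA (1.88); the dashed line is the threshold of 6 and the dotted line the background of 2.58.

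Mitochondrial genes were represented by nad4 alone, which encodes a subunit of respiratory complex I. It read 7.41 in pavement, at rank 102, and 3.83 in trichome. The next of the 16 mitochondrial genes measured was cox1, a subunit of cytochrome c oxidase, at 5.52 in pavement and 2.74 in trichome. At or under background were 11 of the 16.

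The groups of named nuclear members below were made from members alone, so most have no number of measured genes. Matching by name over all measured nuclear genes gave other classes. By this match, members were 3 of 9 in photosystem and antenna and 18 of 419 in enzymes. Those matched to protein turnover were 4 of 105, and they include AT5G06700 and THIC, described below under wall and thiamine synthesis. ATG8F, GAMMA-VPE and PSAE-1 were matched to none of these classes, so the counts are no shares of functions. Matched members were 1 of 50 in transcription and chromatin, 0 of 18 in transport and membrane and 0 of 13 in lipid and cuticle. The membrane proteins AT1G53210 and TET8, described below, are members that the match by name missed. Of all genes, 1.45% were members. Among the nuclear genes with names, those of the photosystems, the antenna and the thylakoid formed a group of 8 members with a median of 9.02. After PSBW came LHCB4.1 at 9.42 and LHCB4.2 at 9.21, which encode forms of the minor antenna protein CP29 of photosystem II. In trichome they read 3.67 and 3.70. The related LHCB4.3 read 1.93 in pavement and 1.81 in trichome. AT4G01150 (CURT1A), which curves the thylakoid membrane at the margins of the grana, read 9.19 and 3.68. Of the other CURT1 genes measured, AT1G52220 read 5.14 in pavement and AT4G38100 2.01.

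PSAE-1, a peripheral subunit of photosystem I, read 8.85 in pavement and 3.95 in trichome. CaS, a calcium-sensing protein of the thylakoid, read 7.48 and 2.67. AT1G74470, the geranylgeranyl reductase that makes the phytyl chain of chlorophyll, read 7.02 in pavement, and its trichome reading of 1.97 was at background. PSAN and PSBY, further nuclear photosystem subunits, read 5.77 and 3.92 in pavement and were no members.

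Of 5 measured nuclear genes whose names matched carbon fixation or photorespiration, 4 were members. Genes of these pathways listed by locus alone, and plastid rbcL, were not counted, so this is no share of the pathways. HPR, the peroxisomal hydroxypyruvate reductase of the photorespiratory cycle, read 9.77 in pavement and 1.88 in trichome. RCA, rubisco activase, read 8.88 and 3.97. SBPASE, the sedoheptulose-bisphosphatase of the Calvin cycle, read 8.17 and 3.97, and PRK, phosphoribulokinase, read 6.38 and 3.17. The 5th gene, GAPC2 of glycolysis, read 4.89 in pavement. RCA is also the only measured gene of 11 listed as markers of mesophyll, the green tissue under the epidermis. The part of mesophyll RNA in the photosynthesis readings was not tested.

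Other cell type markers were few among the measured genes, and those measured were at background in pavement. Of 41 marker genes listed, 12 had a named probe set. The guard cell and stomatal lineage genes GC1, FAMA, MUTE and SPCH read 2.07, 1.99, 2.06 and 2.0 in pavement. The trichome regulators TRY, SIM and GIS read 1.97, 2.06 and 1.70, and the phloem sugar transporter SWEET11 read 2.14. The single epidermal marker measured, the receptor kinase ACR4, read 1.68 in pavement and 2.08 in trichome, so that no defining epidermal marker was above background. The 2 genes named as pavement markers for this work, EXLA1 and AT2G25510, were chosen on these arrays, so their signals give no check of the label.

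The families described here and below were chosen with their members known. Of all genes measured, 15.9% read above background in pavement and 1.45% were members. Nothing is therefore read from a bright gene among dim relatives. Within its family EXLA1 was the only member. It encodes a wall protein of the expansin-like A group and read 10.37 in pavement, at rank 22, and 2.01, at background, in trichome. Of the 18 expansin and expansin-like genes measured, the other 17 read at most 2.76 in pavement, and 16 of them were at or under background. The closest relatives measured were EXLA2 at 1.90 and EXLA3 at 2.13. EXLA3 lies next to EXLA1 on chromosome 3.

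The wall genes among the members were 3 of 84 measured genes with a wall-related name. Besides EXLA1, these were AT5G06700 (TRICHOME BIREFRINGENCE), needed for cellulose deposition in secondary walls, at 6.83 in pavement and 2.07 in trichome, and EXGT-A3, a xyloglucan endotransglucosylase, at 6.02 and 2.99. Of the other 23 measured genes of the TRICHOME BIREFRINGENCE family, TBL37 was brightest at 4.11 and 20 were at or under background. Of the other 9 xyloglucan endotransglucosylase genes, all were at or under background, with readings up to 2.51.

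Cold and drought genes gave 4 members among 25 measured genes whose names refer to stress, chaperones, dehydrins or senescence. After AT1G54410 came COR47, an acidic dehydrin, at 10.43 in pavement and 6.35 in trichome. COR15A, a cold-induced protein of the chloroplast stroma, read 7.27 and, at background, 2.58. DI19, a drought-induced zinc-finger protein, read 7.20 and 3.84. The pair COR15A and COR15B differed within pavement sap, with COR15B at 3.46. LEA4-5, a late embryogenesis abundant protein, was at background at 1.70.

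Protein turnover was represented by 6 named members. UBC28 was the single member of 12 measured ubiquitin-conjugating enzymes, and the next of these, UBC19, read 2.77. ATG8F, a ubiquitin-like protein that coats autophagosomes, read 8.90 in pavement and 5.27 in trichome. APG8H (AT3G15580), of the same family, read 6.07 and 4.31. The other 7 ATG8 genes measured read from 1.99 to 3.95, with ATG8C highest.

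GAMMA-VPE, the vacuolar processing enzyme of vegetative tissue, read 8.31 in pavement and 4.23 in trichome. Its relatives BETA-VPE, ALPHA-VPE and DELTA-VPE were at background, at 2.22, 2.04 and 1.80 in pavement. AFR, an F-box protein of phytochrome A signalling, read 7.22 and 3.28. TPP2, tripeptidyl peptidase II, read 6.87 and 3.76.

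**Figure D3:**
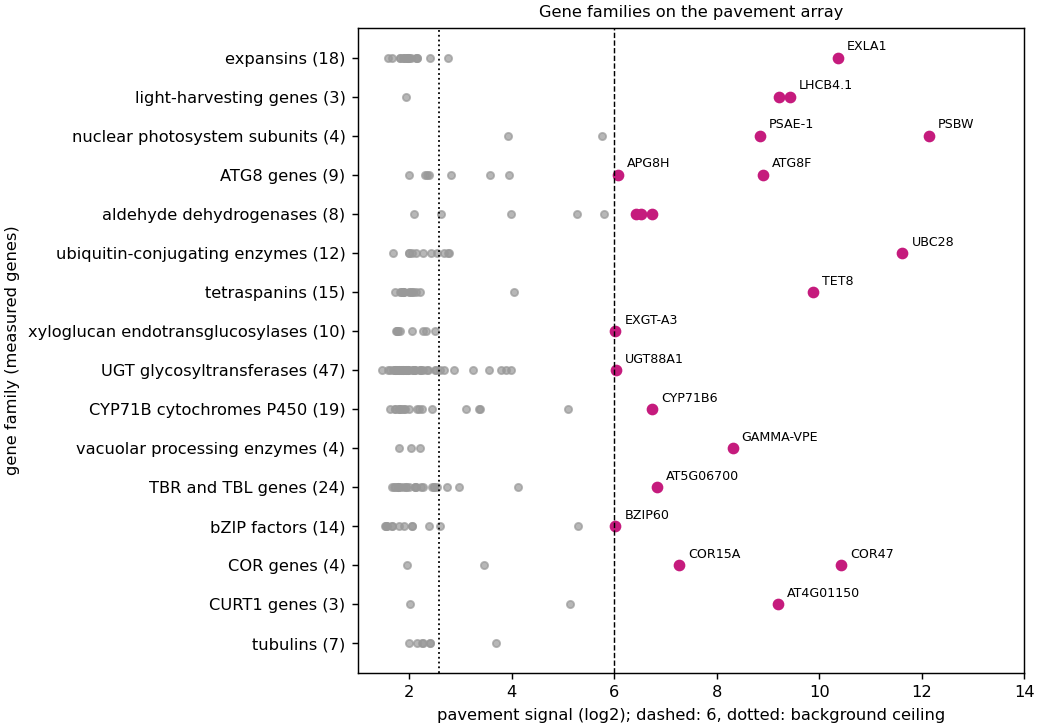
Pavement signal (log2) of the measured genes of 16 gene families, each point 1 gene and the number measured in brackets; pink points are members and grey points are not. In families such as the expansins, tetraspanins and ubiquitin-conjugating enzymes a single gene (EXLA1 at 10.37, TET8 at 9.88, UBC28 at 11.62) lies far to the right of relatives near the dotted line of background at 2.58. Of all genes measured, 15.9% read above background and 1.45% above 6, and families were chosen with their members known.

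Membrane proteins with names were AT1G53210 (NCL), a sodium and calcium exchanger, at 10.34 in pavement and 6.30 in trichome, and TET8, a tetraspanin found on plant extracellular vesicles, at 9.88 and 4.61. TET8 was the only member of 15 tetraspanin genes measured. TET3 followed at 4.04, and 13 of the family were at or under background.

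Metabolic enzymes made up 12 named members. PRXR1, a peroxidase, read 9.76 in pavement, and its trichome reading of 2.22 was at background. The cytosolic isocitrate dehydrogenase cICDH, which supplies NADPH, read 9.74 and 3.84. SAMDC, the S-adenosylmethionine decarboxylase of polyamine synthesis, read 7.30 and 4.51. ACYB-2, a cytochrome b561, read 6.96 and 3.65. The first 2 of these were much brighter than the other members of this group.

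Aldehyde dehydrogenases contributed 3 members of 8 measured, all within a narrow range. ALDH7B4, which removes reactive aldehydes under stress, read 6.74 in pavement and 2.36 in trichome. ALDH2C4, which makes ferulic and sinapic acid, read 6.51 and 2.40. ALDH11A3, the non-phosphorylating glyceraldehyde-3-phosphate dehydrogenase, read 6.42 and 2.61. Just under the threshold was ALDH10A8 at 5.80.

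The remaining enzymes read from 6.04 to 6.74 in pavement. CYP71B6, a cytochrome P450, read 6.74 in pavement and 2.73 in trichome and was the only member of 19 CYP71B genes measured, the next being CYP71B26 at 5.10. LPR2, a multicopper oxidase of the response to phosphate, read 6.73 and 1.83. THIC, of thiamine synthesis, read 6.71 and 4.99. GME, the GDP-mannose epimerase of ascorbate synthesis, read 6.11 and 4.57. UGT88A1 read 6.04 and 1.70 and was the single member of 47 UGT glycosyltransferases, whose other genes read at most 3.98.

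Gene expression was represented by 4 named members. MAC3B, a protein of a complex associated with the spliceosome, read 9.01 in pavement and 4.90 in trichome. FUG1, a translation initiation factor of the chloroplast, read 6.85 and 3.68. ALATS, alanyl-tRNA synthetase, read 6.21 and 5.72, a difference of -0.49 (trichome minus pavement). BZIP60, a transcription factor of the response to unfolded proteins in the endoplasmic reticulum, read 6.02 and 3.93. It was the single member of 14 bZIP genes measured, with BZIP53 next at 5.30. Tubulin genes gave no member among 7 measured, the brightest being TUB6 at 3.69. CP5 (9.87 and 4.61) and ECS1 (8.69 and 2.13) were further members, for which no role is given here.

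**Figure D4:**
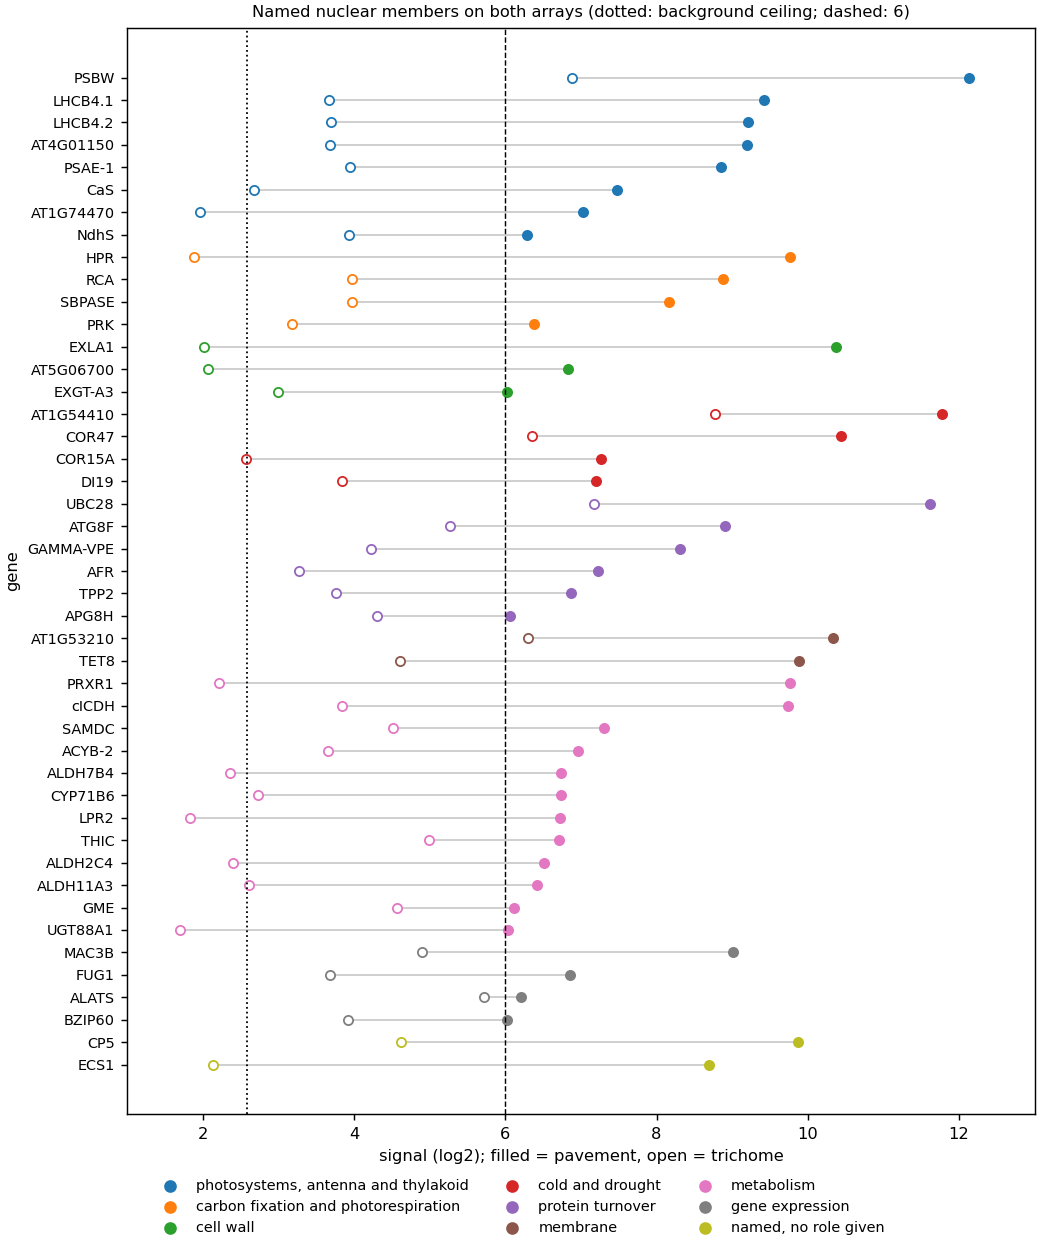
Signal (log2) of the 45 nuclear members that have a name, on the pavement array (filled) and the trichome array (open), grouped by role. All lie to the right of the dashed line at 6 in pavement by selection, and all were dimmer in trichome, where AT1G54410 read 8.77 and genes such as HPR (1.88) lie left of the dotted background line.

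The 121 members listed by locus alone lay between 6.01 and 13.13 (median 7.32), and the 30 brightest genes included 12 of these loci. After AT2G25510 and AT1G52300 the brightest were AT4G39200 at 10.71 in pavement and 6.12 in trichome, AT5G39570 at 10.54 and 7.48, and AT3G22240 at 10.49 and 7.25. AT4G21620 read 10.42 and 5.51, and AT1G78040 read 10.39 and 5.52. AT5G40450 was dimmer in trichome than these, at 10.38 and 4.01. The loci AT3G60245 (10.30 and 6.61), AT2G05540 (10.24 and 4.80) and AT1G09310 (10.17 and 4.99) completed those above 10. AT5G38980, at rank 30, read 9.87 and 3.0. Of the 121, 9 were at background in trichome, among them AT1G55960 (8.67 and 2.28), AT5G14120 (8.40 and 1.79) and AT1G07650 (8.38 and 2.08).

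By position, members lay on all 5 nuclear chromosomes. They were 1.5% of the measured genes of chromosome 1 (51 of 3411), 1.43% of chromosome 2 (31 of 2169), 1.29% of chromosome 3 (35 of 2720), 1.14% of chromosome 4 (22 of 1935) and 0.872% of chromosome 5 (26 of 2982). No pair of nuclear members were direct neighbours among protein-coding genes. Neighbours were taken whether measured or not, and 1.25% of measured nuclear genes were members, so nothing is read from this. Nuclear members were somewhat shorter: the median gene length, introns included, was 1912 bases over 165 members against 2111 over 13217 genes, and the upper quartiles were 2465 and 3049 bases. A pseudogene, AT3G31955, was the only one among the members, whereas 989 of the genes measured are listed as pseudogenes.

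The trichome reading was not used to choose the members, and most of them read above background there as well. Of the 193, 169 read above background on the trichome array, where 12.2% of all genes measured did so. The other 24 members (12.4%) were at or under background, against 87.8% of all genes. With the background set at the second highest Bacillus reading, 2.21, the share of members at background was 7.25%. The share over all genes was not taken at 2.21, so the 87.8% is no comparison for it. The members' median trichome reading was 3.76, with quartiles of 2.96 and 4.90, and the median over all genes there was 2.04. These genes were dim but above background in trichome sap for the most part. Of the guard cell and stomatal lineage genes, FAMA (2.87), MUTE (2.96) and SPCH (2.62) also read above background there, whereas GC1 (2.12) did not.

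Above 6 on the trichome array were 24 members, from AT5G64400 at 6.0 to AT1G23720 at 9.26, where 0.217% of all genes (29) passed that level. The 10 brightest members in trichome were AT1G23720, atpE, AT1G54410, AT3G31955, rpoA, AT5G39570, AT5G62350 (7.32), AT3G22240, UBC28 and ndhC. The other 5 of these 29 were HRGP1, AT4G08410, AT2G12190, AT2G38870 and AT1G06320, which read from 2.69 to 4.54 in pavement. Across the 193 members the 2 arrays correlated with Pearson's r of 0.55 and Spearman's rho of 0.43. This is across genes that share their probe sets between the arrays, and genes are not independent replicates. The median trichome reading was 5.23 over ranks 1 to 50, 3.70 over ranks 51 to 100, 3.60 over ranks 101 to 150 and 3.47 over ranks 151 to 193.

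The members at background in trichome came from several groups. EXLA1, HPR and PRXR1 were the brightest of them in pavement, and they are at least 221-fold, 146-fold and 145-fold brighter there when the trichome reading is set at the background of 2.58. ECS1 followed at at least 69.0-fold. Taking off the median difference of the hybridisation controls lowered these bounds to 24.9-fold for EXLA1 and 16.4-fold for HPR. The bounds for PRXR1 and ECS1 became 16.3-fold and 7.78-fold. All depend on the use of that median, since single controls differed by -3.54 to -1.935 (trichome minus pavement). The plastid genes among the 24 were atpH, atpF, atpB and ndhJ. With 1 array for each cell type they have no replicate check.

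As deposited, 189 of the 193 members (97.9%) were 2-fold or more brighter in pavement than in trichome, against 5.08% of all genes measured. Nothing is read from this, since the pavement value chose the members, and the hybridisation controls were dimmer on the trichome array too. With each difference taken relative to the median of those controls, 44.6% of the members were 2-fold or more brighter in pavement. The share over all genes was not taken at this setting. Differences of the single controls, trichome minus pavement, ran from -3.54 to -1.935, so the 44.6% depends on the use of their median. The 4 exceptions as deposited were AT1G23720 (7.85 in pavement and 9.26 in trichome), AT3G31955 (7.49 and 8.29), AT3G07230 (6.89 and 6.17) and ALATS. The first 2, the only members brighter in trichome, were measured by probe sets of types that can share probes with other transcripts, as was AT4G16240 (9.36 and 4.86). AT2G25510 had the widest measured difference among members above background on both arrays, at -8.33 (trichome minus pavement), and EXLA1 had one of -8.36 with its trichome reading at background.

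**Figure D5:**
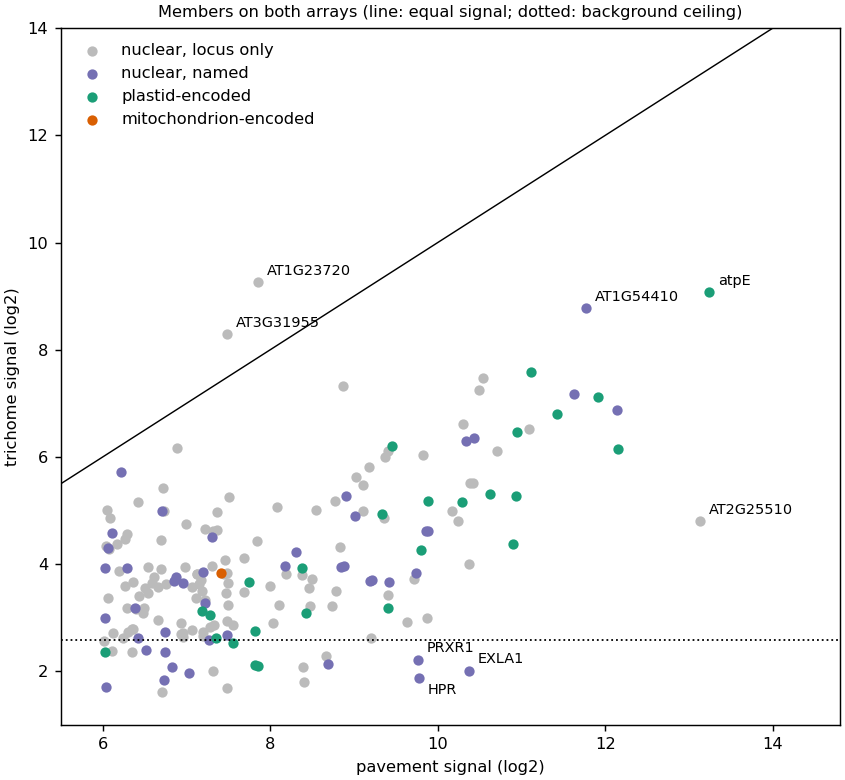
Trichome signal (log2) against pavement signal (log2) of the 193 members, coloured by genome and naming. AT1G23720 and AT3G31955 lie above the line of equal signal, the other members lie under it, and 24 members lie at or under the dotted line of background in trichome, among them EXLA1, HPR and PRXR1.

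The threshold of 6 fell between genes with close readings. The members just inside it were AT3G09630 (6.01), ndhJ (6.02), BZIP60 (6.02), EXGT-A3 (6.02) and AT5G47890 (6.03). Just outside were AT5G14680 (5.99), AT3G62870 (5.98), ndhK (5.98), AT1G36050 (5.97) and AT3G58610 (5.96). These 10 genes lay within far less than the spread between probe sets.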

How the data were processed

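The authors deposited log2 signals for each probe set, made with RMA per the submitters' processing notes, which name no version. The scale follows from the values, which lie between 1.28 and 14.20. RMA gives no detection call and can narrow low readings. Of 22810 probe sets, 13513 name a single gene in the platform table. Control probe sets (64) were left out, and probe sets of a gene were averaged (13356 genes). Names, lengths and gene order came from RefSeq (TAIR10.1), which matched 13436 of the probe sets; nad4 and AT5G57785 were not matched, and nad4 was placed in the mitochondrion by its symbol.

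Product names were not used here, so groups rest on symbols and synonyms, and the planned count of cytosolic ribosomal proteins was not made. Members, groups and families were chosen with earlier results of these data known. Genes named are the 30 brightest, members with a name, those nearest the threshold, those brightest in trichome, marker genes and relatives in the families. Other names were chosen after their values were seen: other organelle genes, GAPC2, LEA4-5, AT4G16240, AT3G07230, AT5G64400, loci at background in trichome and genes above 6 in trichome alone. No test was run, since each cell type has 1 array. Averaging and selection were run on simulated data in which all probe sets of a gene had the same pavement value. The genes recovered were fixed by that setting, so the run checked only that the steps worked. Python 3.11.15, pandas 2.3.3, NumPy 2.4.6, SciPy 1.17.1 and Matplotlib 3.10.9 were used. Alternatives were the highest probe set of a gene, probe sets without shared probes, all plant probe sets, thresholds of 5, 7 and 8, a lower background, and centring on the hybridisation controls.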

Additional observations from a re-analysis of the deposited data

Results flagged for a closer look

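Signal outside the gene ranking was found on the pavement array among probe sets left out of it. Of the 8730 plant probe sets with no gene listed, 228 (2.61%) read above 6, the brightest at 13.34 in pavement and 9.96 in trichome. Of the 503 probe sets paired with several genes, 24 (4.77%) read above 6, the brightest at 11.63. Among the genes ranked, 1.45% read above 6.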

How the results depend on the processing

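No paired analysis was possible because each group holds 1 array and no result comes from a test. Of 44 values under other settings, 28 stayed within the limits set and 16 did not. The limits were 1.5 times for a count, the exact 95% binomial interval for a share of members and the spread between probe sets for a level, while any change in the rounded share of linear signal counted as a move. The binomial interval takes genes as independent, which they are not, so it measures no error of these arrays. The number of members was 193; it was 319 at a threshold of 5, 79 at 8 and 447 when all plant probe sets were counted. The plastid-encoded share of members was 13.5%, against 9.40% at a threshold of 5, 19.4% at 7 and 21.5% at 8, and the mitochondrion-encoded share was 0% at 8. The plastid share of summed linear signal was 33.4%, and 31.9%, 35.1% and 36.6% at thresholds of 5, 7 and 8, 33.2% with the highest probe set for each gene and 33.7% without shared-probe types. The median trichome level was 4.80 at a threshold of 8. The share of members 2-fold or more above trichome was 94.0% at 5, 100% at 8 and 44.6% relative to the hybridisation controls. The share of members at background in trichome was 7.25% with the lower background of 2.21, where the share over all genes was not taken. Leaving out plastid genes, chosen after seeing the data, moved none of 4 values beyond those limits. The causes were not tested. Low signal over background limits what can be said of genes near 2.58.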
